A study of Homo sapiens with 8 samples.

Results

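The effect of depleting the interleukin-13 (IL-13) receptor IL13Rα2 was examined in basal-like breast cancer cells that had also received IL-13. Its 4 arrays, 2 of MIV-Luc-shIL13Rα2#2 cells (+ IL-13) and 2 of MIV-Luc-shSCR cells (+ IL-13), were taken by their column headings from the 8 arrays of the series. MIV is the metastatic MCF10CA1a line, a transformed derivative of the MCF10A breast epithelium, and MIV-Luc cells additionally carry a luciferase gene. Knockdown cells expressed, from the pLKO vector, a small hairpin RNA (shRNA) against IL13RA2, and control cells a scrambled hairpin (shSCR). Both compared groups had received IL-13 at 20 ng/ml over 16 h, and the 4 other arrays, 2 per construct, came from the same lines after mock treatment. All cells grew with horse serum, insulin, EGF, hydrocortisone, cholera toxin and antibiotics, and each line was a puromycin-selected pool transduced with 1 hairpin, so that an effect of IL13RA2 loss, another effect of that hairpin and a difference between the pools cannot be told apart. Each group had 2 biological replicates per the study's methods, called arrays A and B here in column order.

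IL-13 is a cytokine of type 2 immunity that binds IL13Rα1 paired with IL-4Rα, whereupon Janus kinases phosphorylate STAT6, which enters the nucleus and activates genes such as those of chemokines and serpins in epithelium. IL13Rα2 binds the same cytokine with higher affinity and lacks the kinase-binding tail, so it is known as a decoy receptor, and it is itself induced by IL-13 in many epithelial cells. The comparison asks what IL13Rα2 changes once the cytokine is present.

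Values are log2 expression values as normalised by the authors, and a difference of 1 on this scale is a 2-fold change. The medians of the 4 compared arrays lay between 5.03 and 5.05. The correlation across features was 0.9925 between the knockdown arrays with IL-13, 0.9918 between the shSCR arrays with IL-13 and 0.9897 to 0.9931 across these groups, so replicates were not set apart from the other construct by this measure. A gene was called changed at an adjusted p below 0.05 from limma (Benjamini-Hochberg, 29141 features) and a fold change above 2. With 2 arrays per group, precision was set by the array number. Among the basal markers, KRT5 lay at 9.46 to 9.79 and CD44 at 11.76 to 11.95 in the 4 arrays, while the hormone receptor genes ESR1 and PGR lay at 3.97 to 4.40 and 3.07 to 3.35. Of 8 markers of immune, endothelial and stromal cells, PTPRC, which marks leukocytes, lay at 2.27 to 2.68 and VWF at 3.65 to 3.97, whereas the endothelial adhesion gene PECAM1 lay at 7.71 to 8.27, and 0 of the 8 were called. PECAM1 and the T cell gene CD3E, 2 of the 8 (25%), had an unadjusted limma p below 0.05, as 7.07% of all features did, with differences of 0.44 and 0.42 between knockdown and shSCR cells, and their part in the results was not tested.

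The knockdown was present in the cytokine-treated cells but incomplete at the RNA level. IL13RA2 measured 8.23 and 8.15 in the knockdown arrays and 9.36 and 9.33 in the shSCR arrays. Both knockdown arrays lay below both shSCR arrays, with means of 8.19 ± 0.05 and 9.35 ± 0.02 (SD, n = 2). The difference was -1.16 (95% interval -1.41 to -0.90, adjusted p = 0.0241 from limma), or a 2.23-fold lower level in knockdown cells. In the mock-treated shSCR cells the same probes gave 8.07 and 8.09, so the IL-13-treated knockdown cells held about as much IL13RA2 signal as control cells that had not been given the cytokine. In a pool, fewer cells with the transcript and less transcript per cell cannot be told apart.

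Among the IL-13-treated cells 14 genes were called, 9 higher and 5 lower in knockdown cells, together with 1 feature annotated as a small nuclear RNA with no gene symbol (0.0515% of all features tested). They were the targeted gene itself, 4 other genes that fell, NT5E, ARL14, INHBA and DHRS9, and 9 that rose, CASP14, GPX2, TMPRSS15, MLLT3, IL1A, LPHN3, C3orf57, HPGD and CDH19. In each of the 14 the knockdown arrays did not overlap the shSCR arrays, a property that 36.4% of all features had, and one that the call nearly requires. The calls rested on all 8 arrays, which share 1 estimate of the spread. Without any one of the 4 compared arrays, or either mock-treated knockdown array, limma called 0 genes, without either mock-treated shSCR array it called 5 (CASP14, GPX2, IL1A, MLLT3 and TMPRSS15), and a fit of the 4 compared arrays alone called 0, although the sign of each difference was kept.

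**Figure D1:**
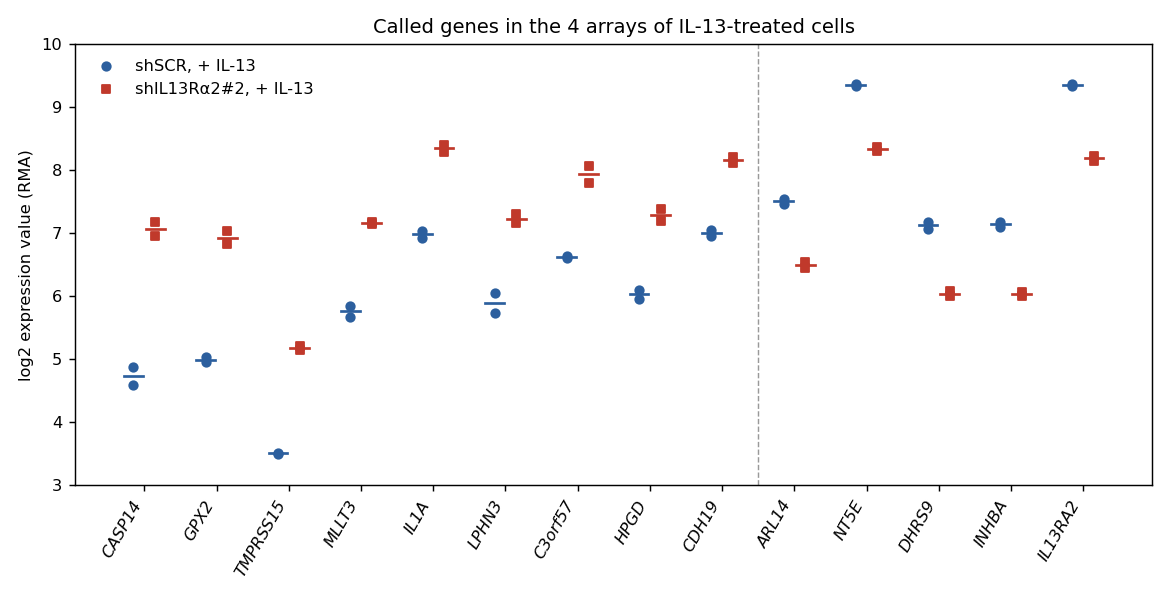
Log2 expression values of the 14 called genes in the 4 arrays of IL-13-treated cells, with circles for shSCR and squares for shIL13Rα2#2 arrays and short bars for the mean of 2. The 9 genes left of the dashed line were higher and the 5 right of it lower in both knockdown arrays, and CASP14 had the widest gap, between means of 4.74 and 7.07.

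The gene with the largest difference among the 14 was CASP14, a caspase of the cornifying layers of the epidermis that takes part in filaggrin processing. It measured 7.17 and 6.96 in the knockdown arrays and 4.59 and 4.88 in the shSCR arrays. Both knockdown arrays were thus more than 2 log2 units above both shSCR arrays, and the difference was 2.33 (95% interval 1.91 to 2.75, adjusted p = 0.0198 from limma), or 5.03-fold. CASP14 was also a gene that IL-13 lowered, by a mean over both constructs of -1.56, and in knockdown cells it stayed above the level of mock-treated shSCR cells, which was 6.41 and 5.94.

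Among genes of redox and lipid metabolism, GPX2, a glutathione peroxidase of epithelial cells and a known NRF2 target, measured 7.03 and 6.83 with the knockdown and 4.95 and 5.03 without it. Its difference was 1.94 (95% interval 1.58 to 2.31, adjusted p = 0.0198 from limma), a 3.84-fold rise. HPGD, the dehydrogenase that inactivates prostaglandins, measured 7.38 and 7.20 against 5.96 and 6.10. It rose by 1.26 (95% interval 0.99 to 1.53, adjusted p = 0.0241 from limma). C3orf57, whose current symbol is SPTSSB and which encodes a small subunit of serine palmitoyltransferase, the entry enzyme of sphingolipid synthesis, measured 8.06 and 7.80 against 6.60 and 6.64 and rose by 1.31 (adjusted p = 0.0316 from limma). DHRS9, a dehydrogenase acting on retinol and steroids, went the other way, at 6.08 and 6.0 against 7.18 and 7.07, and fell by 1.09 (adjusted p = 0.0285 from limma). In none of these 4 did an array of one construct reach the range of the other.

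The secreted and cell-surface signalling molecules of the set moved in both directions. IL1A, the alarmin interleukin-1α, measured 8.29 and 8.40 with the knockdown and 7.03 and 6.93 with shSCR, and it rose by 1.36 (95% interval 1.08 to 1.65, adjusted p = 0.0241 from limma), or 2.57-fold. INHBA, the subunit that forms activin A, a ligand of the TGF-β family, measured 6.07 and 6.01 against 7.18 and 7.10. It fell by 1.10 (95% interval -1.36 to -0.84, adjusted p = 0.0271 from limma), so both knockdown arrays were about 1 log2 unit below control. NT5E, the ectoenzyme CD73 that makes adenosine from AMP outside the cell, measured 8.31 and 8.36 against 9.37 and 9.34. Its level fell by 1.02 (95% interval -1.25 to -0.79, adjusted p = 0.0266 from limma), a 2.03-fold difference that stands just past the fold threshold.

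Of the remaining 5, TMPRSS15, the enteropeptidase that activates trypsinogen in the gut, measured 5.14 and 5.21 against 3.51 and 3.50, arrays of each construct lying within 0.1 of each other, and it rose by 1.67 (adjusted p = 0.0198 from limma). Its shSCR values lay below the array medians of 5.03 to 5.05 and below those of ESR1. Without detection calls, they may be background. MLLT3, a component of the super elongation complex of transcription, measured 7.15 and 7.17 against 5.85 and 5.67, a rise of 1.40 (adjusted p = 0.0241 from limma). A pair of adhesion genes rose as well. CDH19, a cadherin, measured 8.11 and 8.20 against 7.05 and 6.95, with a difference of 1.15 (adjusted p = 0.0241 from limma). LPHN3, now named ADGRL3, an adhesion receptor coupled to G proteins, measured 7.16 and 7.30 against 6.05 and 5.74, with a difference of 1.33 (adjusted p = 0.0271 from limma). ARL14, a small GTPase of vesicle movement, measured 6.45 and 6.55 against 7.47 and 7.54 and fell by 1.00, at 2.01-fold the gene nearest the fold threshold from inside. RAB8B, another GTPase of membrane traffic, at 7.21 and 7.11 against 8.09 and 8.21, was, among genes with an adjusted p below 0.05, the nearest from outside with a difference of -0.99 (1.98-fold, adjusted p = 0.0285 from limma). It brings to 15 the genes with an adjusted p below 0.05, a threshold that 0.0549% of all features passed.

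A second tier had a fold change above 2 and an unadjusted limma p below 0.05 but did not pass the adjusted threshold. With the called genes this looser limit took in 25 named genes and 25 features without a symbol, 50 in all (0.172% of all features), and most of the unnamed ones were annotated as small nuclear, ribosomal or other noncoding RNAs or their pseudogenes. The 11 further named genes included CEACAM5, an adhesion molecule of mucosal epithelium, at 8.49 and 8.28 with the knockdown against 7.09 and 7.16 (difference 1.26, adjusted p = 0.120 from limma), and PLCB1, a phospholipase C, with a difference of 1.04 (adjusted p = 0.0936 from limma). CXCL17, a mucosal chemokine, measured 6.91 and 6.33 against 8.09 and 7.84 (difference -1.35, adjusted p = 0.123 from limma). LIFR, the receptor of leukaemia inhibitory factor, measured 5.96 and 5.87 against 6.89 and 7.07 (difference -1.06, adjusted p = 0.163 from limma). The transcription factor gene ZNF711 and PALMD, which encodes palmdelphin, had differences of 1.53 and 1.16, and ZNF487P, FMN1, FLJ31958 and TNFAIP6 had -1.02, -1.14, 1.00 and -1.02. The last of the 11, BTBD11, had 2 features on the array that disagreed, at 1.01 for the dimmer and -0.38 for the brighter.

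The same hairpin was also compared with shSCR in mock-treated cells, on 4 arrays that share none with the comparison above, although both draw on the same lines and on 1 estimate of the spread. Of the 14 genes, 14 differed in the same direction without IL-13, where 57.4% of all features had the same sign in both comparisons. All 14 also had an unadjusted limma p below 0.05 there (9.51% of all features) and arrays that did not overlap (41.2% of all features). Without IL-13, 16 genes were called (0.0652% of all features), and 10 genes were called in both, which is 71.4% of the 14 and 62.5% of the 16. The 4 called only among cytokine-treated cells, IL1A, NT5E, INHBA and DHRS9, had differences of 0.81, -0.89, -0.67 and -0.86 without it, and NT5E missed the call there by its fold change alone. The 6 called only without IL-13, BICC1, SULT1E1, COL12A1, PLCB1, CEACAM5 and CLCA2, had differences of 0.85, 0.56, 0.80, 1.04, 1.26 and 0.83 with it. Being called in one comparison and not in the other does not show that the effects differ.

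**Figure D2:**
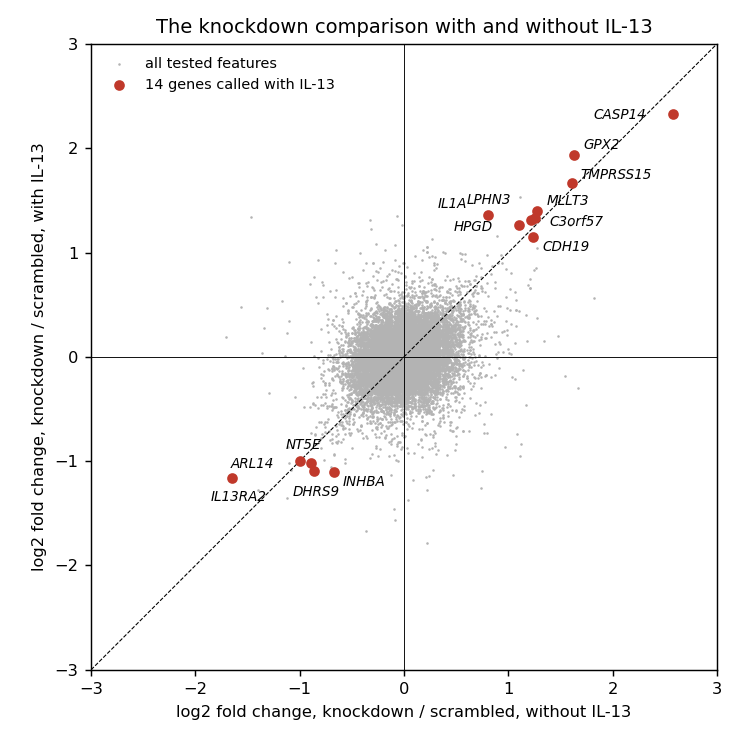
Log2 fold change of knockdown over scrambled cells without IL-13 (horizontal) and with IL-13 (vertical) for the 29141 tested features (grey) and the 14 genes called with IL-13 (red), with a dashed line of equal values. All 14 lie in the quadrants of equal sign, with IL1A, IL13RA2 and INHBA 0.56, 0.49 and 0.43 off the line, while the grey cloud is nearly round (Pearson r 0.243 across features).

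Beyond the called set the shared part was smaller. With IL-13, 2061 features had an unadjusted limma p below 0.05 (7.07%, of which 3.44% were higher and 3.63% lower), and 1506 of them (73.1%) had the same sign without IL-13. Only 624 (30.3%) also had a p below 0.05 there, 565 of these with the same sign. Across all features the fold changes of both comparisons correlated at Pearson r 0.243 and Spearman rho 0.213, and at r 0.503 over the 2061. Genes are not independent replicates, and these values are descriptions.

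Whether the effect of the hairpin itself depended on IL-13 was tested as an interaction. By limma 0 features had an adjusted p below 0.05 for it, the smallest adjusted p being 0.624 (0.0746 where the prior was robust and followed intensity, still with 0 features below 0.05), and 1304 features had an unadjusted p below 0.05 (4.47%). Of the 14 called genes 3 were among the 1304. IL13RA2 differed by -1.65 without IL-13 and -1.16 with it (interaction 0.49, 95% interval 0.13 to 0.85, adjusted p = 0.989 from limma). IL1A measured 7.65 and 7.69 in mock-treated knockdown arrays against 6.73 and 7.0 in mock-treated shSCR arrays, so its difference was 0.81 without and 1.36 with the cytokine (interaction 0.56, 95% interval 0.15 to 0.96, adjusted p = 0.989 from limma). INHBA measured 6.48 and 6.51 against 7.26 and 7.07 in mock-treated cells, with differences of -0.67 and -1.10 (interaction -0.43, 95% interval -0.80 to -0.06, adjusted p = 0.989 from limma). For the 11 others the interval of the interaction included 0, as for ARL14 (-0.33 to 0.34), TMPRSS15 (-0.33 to 0.46) and CASP14 (-0.84 to 0.35).

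**Figure D3:**
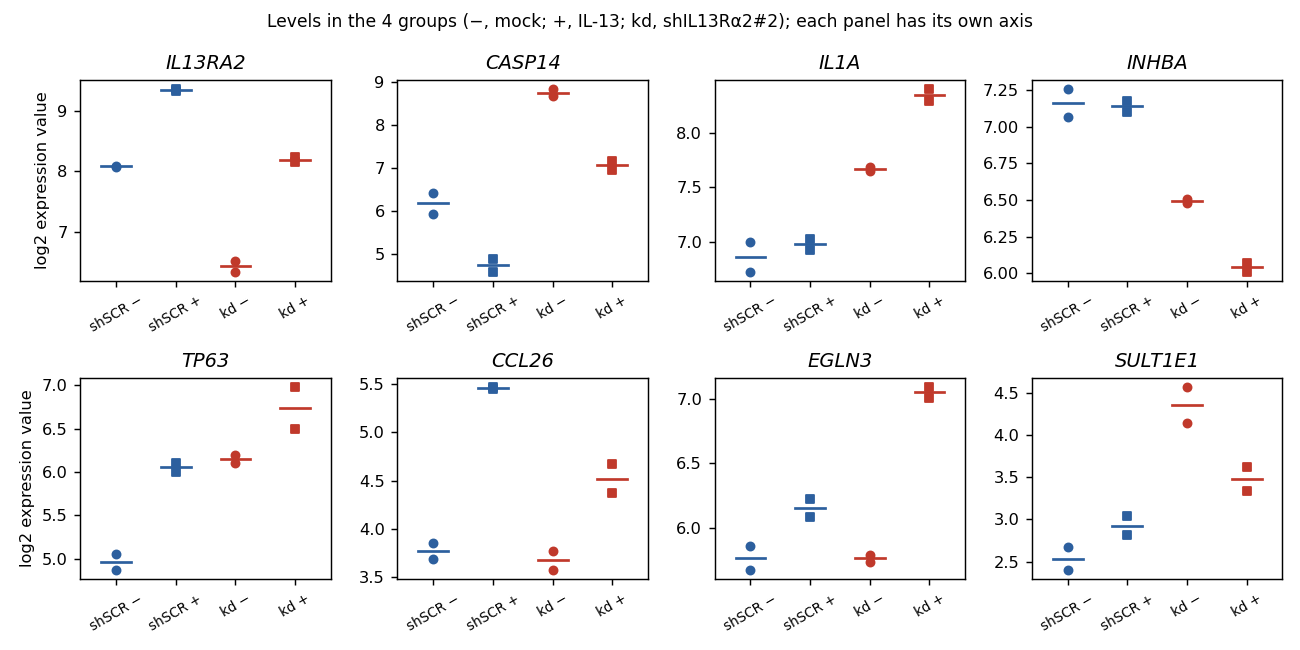
Log2 expression values of 8 genes in the 4 groups, with circles for mock-treated and squares for IL-13-treated arrays, blue for shSCR and red for knockdown, and bars for the mean of 2. IL13RA2, CASP14, IL1A and INHBA are apart between constructs in both treatments, whereas EGLN3 and CCL26 are apart only among the IL-13-treated arrays; axes differ between panels.

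The 5 named genes with the smallest interaction p were RXFP1, which encodes a relaxin receptor, LOC91316, LOC100130876, ZNF778 and FLJ44838. Their differences were -0.21, 0.39, 0.78, -0.83 and 0.72 with IL-13 and 1.06, -0.65, -0.16, 0.30 and -0.79 without it. A better known gene of this kind was EGLN3, a prolyl hydroxylase that marks hypoxia-inducible factor for degradation. It measured 7.01 and 7.09 in knockdown arrays with IL-13 against 6.08 and 6.22 in shSCR arrays, while mock-treated arrays gave 5.79 and 5.73 against 5.67 and 5.86. The difference was 0.90 with IL-13 (adjusted p = 0.0936 from limma) and -0.01 without it. CCL26, the eotaxin that is a classical STAT6 target, measured 4.37 and 4.67 against 5.47 and 5.45 with IL-13 and overlapped between constructs without it, with differences of -0.94 (adjusted p = 0.128 from limma) and -0.10. SULT1E1, the oestrogen sulfotransferase, went the other way, from 1.82 without to 0.56 with IL-13. For each of these genes the interaction itself had an adjusted p of 0.989 from limma, so a dependence on IL-13 is not shown.

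The next question was whether the genes that respond to IL-13 were set differently by the knockdown once the cytokine was there. The 26 responders were those with an adjusted limma p below 0.05 and a fold above 2 for the mean IL-13 effect over both constructs, a contrast that is independent of the constructs' difference. Their median difference between constructs was 0.03, against 0.002 over all features. Of the 19 responders that IL-13 raised, 10 were above and 9 below 0, with a median of 0.01, and of the 7 it lowered 4 were above and 3 below, with a median of 0.14. Called were 2 of the 26, IL13RA2, down, and CASP14, up (0.0515% of all features were called). At an unadjusted limma p below 0.05 there were 11 (42.3%, against 7.07% of all features), 6 higher and 5 lower, and for the other 15 the 95% interval included 0. The responders were chosen by a test that uses the same estimate of the spread, so these shares are descriptions.

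**Figure D4:**
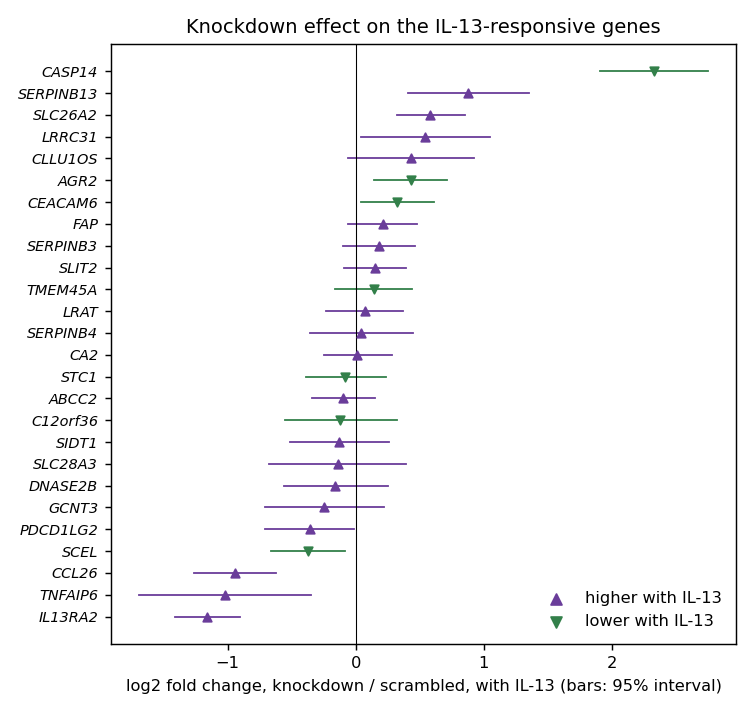
Log2 fold change of knockdown over scrambled cells with IL-13, and its 95% interval from limma, for the 26 genes that respond to IL-13, with upward triangles for genes higher and downward triangles for genes lower with the cytokine. Of the 26, 19 lie within 0.5 of 0, with CASP14 at 2.33 at one end and IL13RA2 at -1.16, TNFAIP6 at -1.02 and CCL26 at -0.94 at the other.

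Responders differed widely in this respect, and the 2 with the largest IL-13 effect had small differences between constructs. SERPINB4, a serine protease inhibitor used as a marker of type 2 inflammation, measured 9.55 and 9.28 with the knockdown and 9.36 and 9.38 with shSCR, with overlapping arrays. Its difference was 0.04, and the 95% interval of -0.36 to 0.45 leaves out a change of 1.5-fold in either direction. SERPINB3, its neighbour in family and function, measured 10.93 and 10.97 against 10.70 and 10.85 (difference 0.18, 95% interval -0.10 to 0.46). The same genes differed by 1.01 and 0.78 between constructs in mock-treated cells, neither past the adjusted threshold, with interactions of -0.96 and -0.60 (adjusted p above 0.05 for both from limma). CA2, a carbonic anhydrase, gave 0.01 (95% interval -0.25 to 0.28), LRAT, which esterifies retinol, gave 0.07, and ABCC2, a drug efflux pump, gave -0.10. TNFAIP6, a hyaluronan-binding protein of inflammation, was lower in both knockdown arrays, at 7.49 and 7.79 against 8.57 and 8.75 (difference -1.02, 95% interval -1.69 to -0.35, adjusted p = 0.494 from limma). SLC26A2, a sulfate transporter, and SERPINB13, a serpin of squamous epithelium, had differences of 0.58 and 0.88.

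In the receptor chain, the targeted gene was the only one of 26 measured members to be called. The signalling receptor IL13RA1 differed by 0.13 (95% interval -0.12 to 0.39), its partner IL4R by -0.20 (-0.50 to 0.10) and STAT6 by -0.22 (-0.49 to 0.05). JAK1 gave 0.12 and TYK2 0.08, and the feedback inhibitor SOCS1 gave 0.00. Of the 26 members 1 (3.85%) had an unadjusted p below 0.05, and the median was -0.07. Over all features 0.0515% were called and 7.07% had such a p. The 27 STAT6 targets had 0 called members and a median of -0.02, with 4 members (14.8%), 1 higher (CD36) and 3 lower (CCL26, TNFAIP6 and PDCD1LG2) at an unadjusted p below 0.05.

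TP63, the transcription factor of basal epithelium, measured 6.98 and 6.50 in knockdown arrays and 6.11 and 6.0 in shSCR arrays with IL-13. Both knockdown arrays were higher, by a mean of 0.69 (95% interval 0.30 to 1.07, adjusted p = 0.377 from limma), and without IL-13 the difference was 1.19. Of 28 p63 targets 0 were called (0.0515% of all features were), and 7 (25%, against 7.07% of all features) had an unadjusted limma p below 0.05, 3 higher and 4 lower, with a median of -0.05. CLCA2, a p63 target of basal cells, had a difference of 0.83 (adjusted p = 0.164 from limma). Of the other genes the study singled out, CFI, which cleaves complement C3b and C4b, measured 6.56 and 6.18 against 5.65 and 5.41 (difference 0.84, adjusted p = 0.280 from limma). CD36, a fatty acid receptor, measured 5.02 and 4.64 against 3.47 and 4.20 (difference 0.99, adjusted p = 0.355 from limma). GPX2, MLLT3 and SERPINB13, which the study also selected, had differences of 1.94, 1.40 and 0.88. SERPINB3 and SERPINB4, which it names as known IL-13 targets, had 0.18 and 0.04. CXCL17, selected by the study as well, went the other way, at -1.35 with IL-13 and -1.12 without it. These genes were chosen by the study on arrays that include the present ones, so their direction is not independent evidence.

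**Figure D5:**
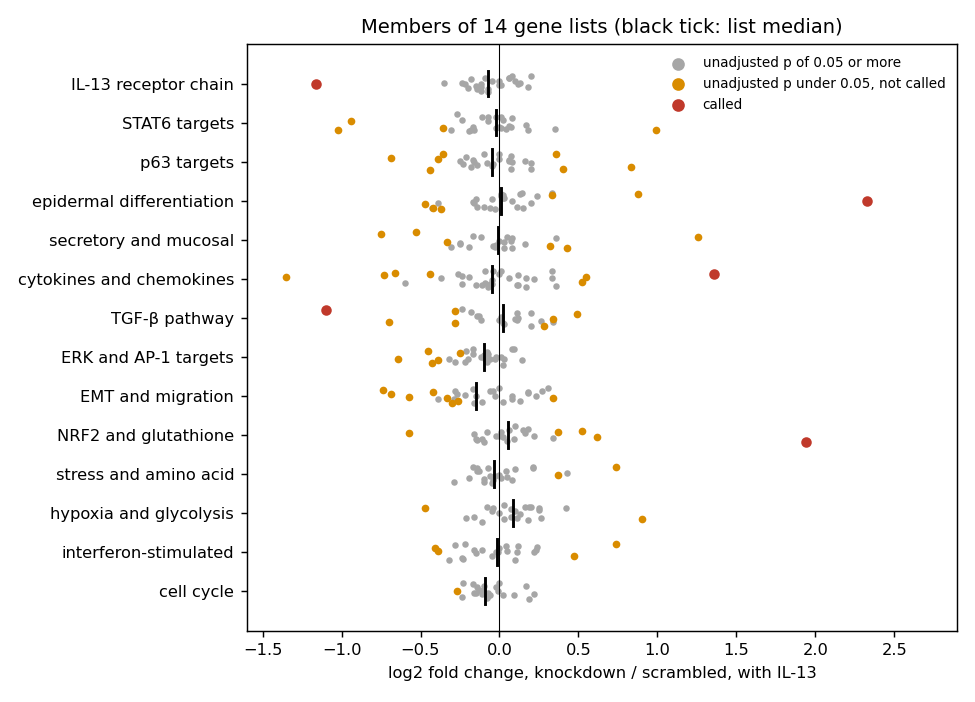
Log2 fold change of knockdown over scrambled cells with IL-13 for the measured members of 14 gene lists, each point a gene and each black tick a list median. The medians lie between -0.15 and 0.09, and the 5 called members (red) lie past a 2-fold change, as a call requires.

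Across 14 lists with 370 distinct genes 5 members were called, 1 each from 5 lists: IL13RA2, CASP14, IL1A, INHBA and GPX2. At an unadjusted p below 0.05 there were 65 (17.6%), 26 higher and 39 lower, where 7.07% of all features passed. The lists were written with earlier results of these data known, so this share is a description.

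Of 29 genes of epidermal differentiation CASP14 alone was called, and the median was 0.01. An unadjusted p below 0.05 was found for 6 (20.7%, against 7.07% of all features), 3 in each direction. Others of the list went either way, with SERPINB13 at 0.88 and the elastase inhibitor PI3 at -0.47. The list of 24 secretory and mucosal genes had 0 called members and 6 (25%) with an unadjusted p below 0.05, again 3 in each direction, with CEACAM5 at 1.26 and its relative CEACAM1, at 8.53 and 8.38 against 9.29 and 9.12, at -0.75 (adjusted p = 0.155 from limma).

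Of 34 cytokines and chemokines IL1A was called, and the median was -0.05. An unadjusted p below 0.05 was found for 7 (20.6%, against 7.07% of all features), 3 higher and 4 lower. IL1RN, the receptor antagonist that opposes interleukin-1, measured 4.14 and 3.91 against 4.98 and 4.52, a difference of -0.73 (adjusted p = 0.346 from limma). The chemokine CCL20 had -0.66, and the neutrophil chemokines CXCL1 and CXCL2 had 0.52 and 0.55.

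Of 24 TGF-β pathway genes INHBA was called, and TGFBR1, the type I receptor, measured 6.66 and 6.74 against 7.38 and 7.43 (difference -0.70, adjusted p = 0.163 from limma). The matrix gene THBS1 and the ligand TGFB2 had 0.49 and 0.34. An unadjusted p below 0.05 was found for 7 of the 24 (29.2%, against 7.07% of all features), 3 higher and 4 lower. The list median was 0.03.

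Among 31 measured genes of epithelial-mesenchymal transition and migration 0 were called, 20 were below 0 and the median was -0.15. At an unadjusted limma p below 0.05 there were 8 (25.8%), 7 of them lower and 1 higher, where 3.63% of all features were lower and 3.44% higher. VIM, the intermediate filament of mesenchymal cells, measured 7.53 and 7.60 against 8.23 and 8.38 (difference -0.74, adjusted p = 0.136 from limma). TNC, the matrix protein tenascin-C, measured 7.34 and 7.38 against 8.06 and 8.04 (difference -0.69, adjusted p = 0.135 from limma). SPARC and the urokinase receptor PLAUR had -0.42 and -0.57, but the epithelial genes CLDN7 and ESRP1 were also lower, at -0.30 and -0.26, and CLDN1 was at 0.34. The 27 ERK and AP-1 targets had 0 called members, 21 below 0 and a median of -0.10, and 5 (18.5%), each lower, had an unadjusted p below 0.05, with EGR1, an immediate early transcription factor, at -0.64 and FOS at -0.45.

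Of 24 NRF2 and glutathione genes GPX2 was called. AKR1C2, an aldo-keto reductase, and GCLC, the catalytic subunit that starts glutathione synthesis, had 0.62 and 0.52, and AKR1B10 had -0.57. The list median was 0.06, and 5 (20.8%, against 7.07% of all features) had an unadjusted p below 0.05, 4 higher and 1 lower. SLC7A11, the cystine importer, which was placed with the stress and amino acid genes, measured 9.46 and 9.47 against 8.58 and 8.88 (difference 0.74, adjusted p = 0.164 from limma). The 24 genes of the stress and amino acid list had 0 calls and a median of -0.04. Of them 2 (8.33%), both higher, had an unadjusted p below 0.05, a share near the 7.07% of all features.

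The hypoxia and glycolysis, interferon and cell cycle lists, of 24 measured genes each, had 0 called members. An unadjusted limma p below 0.05 was found for 2 (8.33%), 4 (16.7%) and 1 (4.17%), against 7.07% of all features. Of the 4 interferon genes 2 were higher and 2 lower. EGLN3 was the hypoxia gene farthest from 0, and the median of that list was 0.09. IFI44L, an interferon-stimulated gene, measured 5.30 and 5.28 against 4.55 and 4.56 (difference 0.74, adjusted p = 0.155 from limma), whereas OASL and MX1 had -0.41 and -0.39 and the median was -0.02. Of the cell cycle genes 19 of 24 were below 0 but none by more than 0.27, and the median was -0.09.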

How the data were processed

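RNA of 8 cultures of a human cell line was hybridised to Affymetrix GeneChip arrays. The authors deposited 1 table of log2 expression values for the whole series, made with Affymetrix Expression Console (version 1 in the submitters' processing notes) by RMA, which corrects background, quantile-normalises arrays to each other and summarises probes per transcript. Quantile normalisation makes the distributions of the arrays alike, so a shift of most genes in one direction would not be seen, and no detection calls were used, so a low value may be background. Probes shared by related genes, such as SERPINB3 and SERPINB4 or CEACAM family members, can mix their signals.

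Of 33297 features 4156 controls were left out and 29141 tested, 7102 of them without a symbol. Of 20193 symbols 19537 matched RefSeq gene names, 2331 as older symbols, 66 features named several genes and 38 symbols had been turned into dates. Column headings gave construct and treatment of each array.

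Group means of all 8 arrays were fitted in limma 3.58.1 (R 4.3.3), giving 4 residual degrees of freedom and 3.86 from the prior, with no covariate. The contrasts were knockdown minus shSCR with IL-13, the same without IL-13, their difference (interaction) and the mean IL-13 effect. Genes were called at an adjusted p below 0.05 and a fold above 2. The fit was tested on simulated data. For lists, the feature with the highest mean stood for a gene. Named were the receptor chain, the called genes, up to 12 per direction with an unadjusted p below 0.05 and a fold above 2, 9 genes singled out by the study, list members past a 1.5-fold change (up to 4 per list), and the 5 with the smallest interaction p; some list members, IL-13 responders, SULT1E1 and genes called only without IL-13 were added after their values were seen. The members and lists were chosen with earlier results of these data known. Alternatives covered a one-way analysis of variance between the compared groups, since the study's methods name this test without its groups. Others covered the arrays fitted, adjustment, fold threshold, a filter on dim features, normalisation, the prior, features per gene and each array left out.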

Additional observations from a re-analysis of the deposited data

How the results depend on the processing

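The count of 14 called genes depended on how the spread was estimated. It was 0 with limma on the 4 compared arrays alone, where IL13RA2 had -1.16 (adjusted p = 0.237). A one-way analysis of variance between the compared groups also called 0 after adjustment, where IL13RA2 had -1.16 (adjusted p = 0.604). The study's methods name such a test but not its groups, so this may differ from the test the study ran. The analysis of variance without adjustment called 23 genes and limma without adjustment 25, each including the 14. Of the 25, 23 had the same sign without IL-13. Leaving out 1 of the 8 arrays gave 0 to 5 called genes: 0 without any of the 4 compared arrays or either mock-treated knockdown array, and 5 (CASP14, GPX2, IL1A, MLLT3 and TMPRSS15) without either mock-treated shSCR array. Each gene called with 1 array left out had the same sign without IL-13, and where 0 genes were called there was no sign to compare. A group left with 1 array was assumed to vary like the others. IL13RA2 then ranged from -1.19 to -1.12 (adjusted p = 0.0780 to 0.214 from limma), and CASP14 from 2.19 to 2.48. An intensity trend with a robust prior called 21 genes, the 14 and 7 more (CEACAM5, CXCL17, LIFR, PALMD, PLCB1, ZNF487P and ZNF711), leaving out the dimmest 30% of features added PLCB1, and a further quantile normalisation lost ARL14. With a 1.5-fold threshold or none 15 were called. For the interaction 841 genes had an unadjusted limma p below 0.05, and 0 passed the adjusted threshold under any alternative that was fitted for it, the smallest adjusted p being 0.0746 with the trend and robust prior and 0.318 without the dimmest features. No value past the threshold changed sign under the alternatives. No paired analysis was possible because the column headings lack the numbers that the labels give to replicates, so the replicate block was not run. With 2 arrays per group, a gene that misses the threshold is not shown to be the same in both constructs.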
